A study of Mus musculus with 10 samples.

Results

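The 2 mutant forms of VHL in this series, P81S and R167Q, were set together against the wildtype form. The average of the P81S mean and the R167Q mean was compared with the wildtype mean, gene by gene, and the place of R167Q between wildtype and P81S was then read for the genes that shifted. The genes described are the 18056 autosomal genes among 18820 measured, and all 10 arrays of the series were used. The tumours were teratomas, mixed-tissue tumours formed by pluripotent cells, and each array measured the RNA of 1 tumour. All of them grew from J1 Sv/129 mouse embryonic stem (ES) cells that lacked mouse Vhl (Vhl-/-) and carried a human VHL cDNA. The 3 groups were wildtype VHL (3 arrays), R167Q VHL (3 arrays) and P81S VHL (4 arrays). Cells, 1000000 per injection, were placed under the skin of both flanks of female nu/nu mice, which lack T cells, and tumours were taken at a largest dimension of 1 cm. The labels call the P81S tumours apoptosis-resistant and the other tumours apoptotic. The P81S arrays stand for 2 clones with 2 replicates each, and which arrays share a clone is not labelled. The number of clones behind wildtype and R167Q is not given in the sources used here. Although the titles speak of biological replicates, no label says whether they came from separate animals, so p-values measure the spread between these tumours.

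VHL is the part of a ubiquitin ligase that recognises hypoxia-inducible factor (HIF) once prolyl hydroxylases, the Egln enzymes, have modified it in the presence of oxygen. Without VHL function HIF persists and turns on genes for blood vessel growth, glycolysis and pH control. Inherited VHL mutations cause tumours of blood vessels, kidney and the catecholamine-producing adrenal medulla, and R167Q is one of the germline mutations found in that disease. Dopamine neurons, one of the many cell types a teratoma can contain, are marked by the enzyme that makes the dopamine precursor, the transporter that takes dopamine back up and a set of transcription factors and receptors.

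The probe set annotated to mouse Vhl, the targeted gene, read 6.94, 6.95 and 6.85 log2 in wildtype replicates 1 to 3. It read 6.83, 6.93 and 7.21 in R167Q and 8.49, 8.77, 8.53 and 8.90 in P81S. The R167Q and wildtype arrays overlapped and every P81S array lay above both, so the average shift of 0.92 ± 0.14 log2 (SE, limma adjusted p = 0.0018) came from P81S. The sources used here do not state which part of Vhl the deletion removed or whether this probe set detects the human cDNA. This signal therefore does not check the labels and cannot be assigned to the mouse gene or to the cDNA. Between groups, arrays were most alike for R167Q and wildtype, with correlations across genes of 0.979 to 0.989, and least alike for P81S and wildtype, at 0.923 to 0.965. The Y-linked genes measured here separated wildtype from both mutants. Eif2s3y read 4.2 to 4.81 log2 in wildtype, 9.83 to 10.21 in R167Q and 8.51 to 9.91 in P81S. Kdm5d and Uty were likewise at 3.78 to 4.81 in wildtype and at 8.09 to 9.26 in the 7 mutant arrays. With 1 wildtype group, a difference between its ES cells and the mutant ES cells and an effect of the VHL mutations cannot be told apart in any result given here. Xist, which the female host expresses and male donor cells do not, was at 7.0 to 8.06 in wildtype, 7.98 to 8.57 in R167Q and 6.79 to 8.10 in P81S, and its average shift of 0.44 ± 0.29 did not pass the test (limma adjusted p = 0.33).

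Both mutants together differed from wildtype in 3719 of 18056 genes (20.6%) by limma at an adjusted p under 0.05. Of these, 1758 (9.74%) were higher, here called rises, and 1961 (10.9%) were lower, here called falls. In 3684 of the 3719, both mutants shifted the same way, a share that the rule largely fixes, since both differences share the wildtype arrays; over all autosomal genes it was 75.5%. All 7 mutant arrays lay on 1 side of the 3 wildtype arrays in 1771 of the called genes with a shared direction (9.81% of all genes), 586 above and 1185 below; called or not, all 7 mutant arrays were above wildtype in 4.1% of genes and below it in 8.67%. Shifts of at least 2-fold in each mutant were rare, with 25 of those 586 rises and 18 of those 1185 falls. Only part of the count belongs to R167Q: on its own it passed the test against wildtype in 8 genes (0.0443%), against 6225 for P81S (34.5%). The number of called genes leaned on single wildtype arrays, being 1711 without wildtype replicate 3 and 2024 without wildtype replicate 2.

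**Figure D1:**
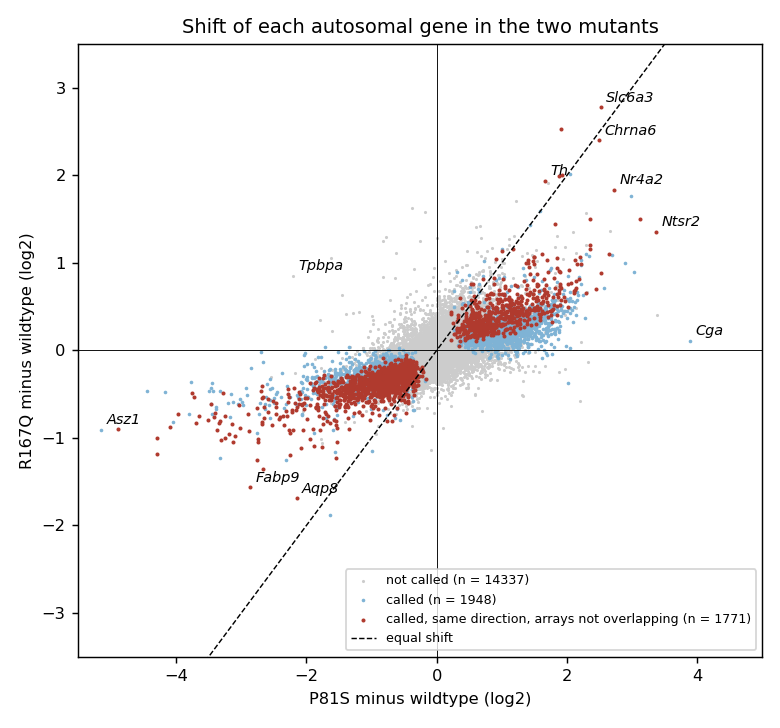
Difference from wildtype in log2 for P81S (horizontal) and R167Q (vertical), 1 point per autosomal gene; both axes share the 3 wildtype arrays. Grey points were not called, blue points were called in the average of both mutants, and red points are the 1771 called genes whose mutant arrays all lie on 1 side of wildtype; most lie closer to the horizontal axis than the dashed line of equal shift, while Slc6a3, Chrna6 and Th lie near that line.

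R167Q lay between wildtype and P81S in most called genes. Its mean was between the other means in 3597 of the 3719 called genes (96.7%), beyond P81S in 87 (2.34%) and on the other side of wildtype in 35 (0.941%). Over all autosomal genes the shares were 59.4%, 16.1% and 24.5%. Calling on the average of both mutants favours genes that both shift the same way, so part of this contrast is set by the rule. The median R167Q shift was 31.5% of the P81S shift in called genes and 30.0% over all genes, so the called genes did not stand apart in that median. The mutants themselves differed in 4025 of 18056 genes (22.3%, limma adjusted p under 0.05). That count was 2194 without R167Q replicate 1 and 2293 without P81S replicates 3 and 4. Among the 3684 called genes with a shared direction, the mutants differed in 2647, where the median R167Q shift was 26.4% of that in P81S. They were not called different in the other 1037, where it was 55.6%, and 87 of these had R167Q beyond P81S. The split and the place of R167Q rest on the same difference between the mutants, so the contrast of these medians follows from the split. A missed call does not show that the mutants acted alike, and 95% intervals of the difference are given for the genes described. Without wildtype replicate 3, R167Q lay between in 1676 of 1711 called genes and beyond P81S in 31. Without wildtype replicate 2 these were 1983 of 2024 and 37, so the counts fell with the number of called genes.

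**Figure D2:**
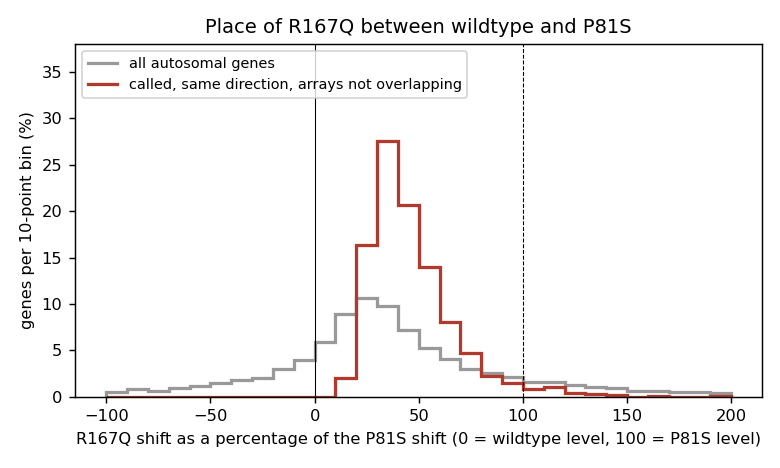
Share of genes (vertical, percent per bin of 10 points) by R167Q shift as a percentage of the P81S shift (horizontal; 0 is the wildtype level and 100 the P81S level), for all 18056 autosomal genes (grey) and the 1771 called genes without overlap (red). Values outside the axis, 2787 of all genes and 2 of the called genes, are not drawn. The red curve peaks below its median of 41.9% and has no gene below 0, because a shared direction was required.

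The rises that were large in both mutants were led by Slc6a3 and Chrna6, genes known from dopamine neurons. These rises were chosen among genes whose mutant arrays all lay above wildtype. The p-values given with average shifts are those of both mutants together. R167Q on its own passed against wildtype only in the 8 autosomal genes listed further below. It did not pass in Slc6a3 or Chrna6 (limma adjusted p = 0.084 in each). Slc6a3, the dopamine transporter (chr13:73536128-73578672, GRCm38.p6), read 6.98, 8.17 and 8.48 log2 in wildtype, 10.36, 10.84 and 10.77 in R167Q, and 10.82, 10.96, 10.65 and 9.14 in P81S. All mutant arrays lay above wildtype, and P81S replicate 4 was the lowest of them. The average rise was 2.65 ± 0.40 log2 (SE), or 6.27-fold (limma adjusted p = 0.00203). The R167Q mean was the higher mutant mean, with P81S minus R167Q at -0.26 log2 (95% interval -1.24 to 0.72).

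Th is tyrosine hydroxylase, whose product is the dopamine precursor and whose activity limits dopamine output (chr7:142892779-142899995). It read 8.58, 9.03 and 9.04 log2 in wildtype, 10.76, 10.94 and 10.78 in R167Q, and 10.83, 11.10, 10.54 and 9.71 in P81S. The mutants were apart from wildtype and overlapped each other, with P81S replicate 4 again lowest. Th rose by 1.8 ± 0.24 log2, or 3.48-fold (limma adjusted p = 0.00121), and P81S minus R167Q was -0.28 (95% interval -0.87 to 0.31).

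Nr4a2, a nuclear receptor needed for midbrain dopamine neurons (chr2:57106830-57124003), read 8.91, 9.38 and 9.18 in wildtype, 11.33, 11.12 and 10.52 in R167Q, and 11.89, 12.16, 12.09 and 11.36 in P81S. Here the 3 groups did not overlap, and R167Q stood at 67.4% of the P81S shift. The average rise was 2.28 ± 0.20 log2, or 4.85-fold (limma adjusted p = 0.000263), and P81S exceeded R167Q by 0.89 (adjusted p = 0.0164).

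The windows of 250 bases before 1 annotated start site each of these 3 genes and of the HIF target Vegfa, which also rose, are shown because the genes moved together. The start site used for Slc6a3 lies inside the gene span given above, which begins further upstream. They come from RefSeq on GRCm38.p6, in which 52 of 75 autosomal genes, those named by rule together with Shc3 and Hesx1, had a window. The windows are chr7:142899996-142900245 for Th (minus strand), chr13:73536497-73536746 for Slc6a3 (plus strand), chr2:57124004-57124253 for Nr4a2 (minus strand) and chr17:46032378-46032627 for Vegfa (minus strand, the first of 2 windows listed). Capitals mark matches on either strand to TGACGTCA, the cAMP response element, and to ACGTG and GCGTG, the core spellings of the HIF response element.
Th: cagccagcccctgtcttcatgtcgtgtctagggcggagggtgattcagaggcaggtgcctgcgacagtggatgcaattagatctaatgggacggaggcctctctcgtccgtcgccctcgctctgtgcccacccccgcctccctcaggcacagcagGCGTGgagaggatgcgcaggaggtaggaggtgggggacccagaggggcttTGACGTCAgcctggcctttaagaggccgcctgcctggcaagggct
Slc6a3: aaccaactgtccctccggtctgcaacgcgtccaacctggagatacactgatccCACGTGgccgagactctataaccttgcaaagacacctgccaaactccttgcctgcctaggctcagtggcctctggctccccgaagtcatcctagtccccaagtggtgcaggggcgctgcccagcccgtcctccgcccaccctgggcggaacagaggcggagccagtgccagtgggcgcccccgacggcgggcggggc
Nr4a2: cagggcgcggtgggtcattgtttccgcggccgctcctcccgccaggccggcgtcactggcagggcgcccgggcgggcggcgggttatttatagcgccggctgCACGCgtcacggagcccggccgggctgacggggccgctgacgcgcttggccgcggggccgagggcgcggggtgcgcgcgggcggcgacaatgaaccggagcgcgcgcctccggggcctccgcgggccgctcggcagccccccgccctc
Vegfa: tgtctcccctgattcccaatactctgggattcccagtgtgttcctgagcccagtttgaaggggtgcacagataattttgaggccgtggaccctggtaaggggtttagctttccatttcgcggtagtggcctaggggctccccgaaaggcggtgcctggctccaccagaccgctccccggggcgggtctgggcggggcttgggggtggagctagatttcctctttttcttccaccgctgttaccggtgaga
The Th window holds TGACGTCA, first base 45 bases before the start site, which 1.55% of 32851 such windows hold, and 1 GCGTG, which 28.2% hold. In the Slc6a3 window the capitals CACGTG hold ACGTG on both strands, overlapping, and 16.6% of windows hold ACGTG. The Nr4a2 window has GCGTG on the other strand, and none of the 3 motifs is in this Vegfa window. A match of letters is a description and not a bound site.

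Several receptor genes known from dopamine neurons rose too. Which cells of the tumours held this RNA was not tested. Chrna6 and Chrnb3 encode nicotinic acetylcholine receptor subunits and lie next to each other on chromosome 8 (27403212 to 27413944 and 27368711 to 27399730). Chrna6 read 4.59, 6.10 and 5.65 in wildtype, 7.68, 7.98 and 7.88 in R167Q, and 8.38, 8.57, 7.54 and 7.26 in P81S, a rise of 2.44 ± 0.35 log2 (5.44-fold, limma adjusted p = 0.00154). Chrnb3 read 5.71, 6.18 and 5.68, then 7.56, 7.86 and 8.14, then 8.41, 8.19, 7.76 and 6.74, a rise of 1.96 ± 0.31 (3.89-fold, adjusted p = 0.0024). In both, every mutant array was above wildtype and the mutants overlapped, with P81S minus R167Q at 0.09 (95% interval -0.75 to 0.93) and -0.08 (-0.84 to 0.68). Chromosome 8 as a whole had a median shift of 0.13 log2 in P81S and 0.01 in R167Q. Of its 893 genes, 154 rose and 51 fell, beside 9.74% of all autosomal genes rising and 10.9% falling. Egln1, described below, lies on chromosome 8 too. Chromosome 11 had more falls, with 78 of its 1469 genes rising and 217 falling. It holds Slc4a1, Stc2, Gfap, Rad50, Birc5 and Aurkb, also described below.

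Chrm5, a muscarinic receptor, varied little within groups: 6.13, 6.15 and 5.96 in wildtype, 7.67, 7.65 and 7.43 in R167Q, and 8.60, 8.50, 8.47 and 8.18 in P81S. The groups formed 3 steps, and Chrm5 rose by 1.93 ± 0.13 log2 (3.82-fold, limma adjusted p = 5.39e-05), with P81S above R167Q by 0.86 (adjusted p = 0.00219). Ret, the receptor tyrosine kinase for GDNF-family ligands, read 8.31, 8.59 and 8.39, then 9.74, 9.89 and 9.99, then 10.34, 10.31, 10.57 and 9.75. Its mutants overlapped each other but not wildtype, and it rose by 1.63 ± 0.16 log2 (3.09-fold, adjusted p = 0.000328).

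**Figure D3:**
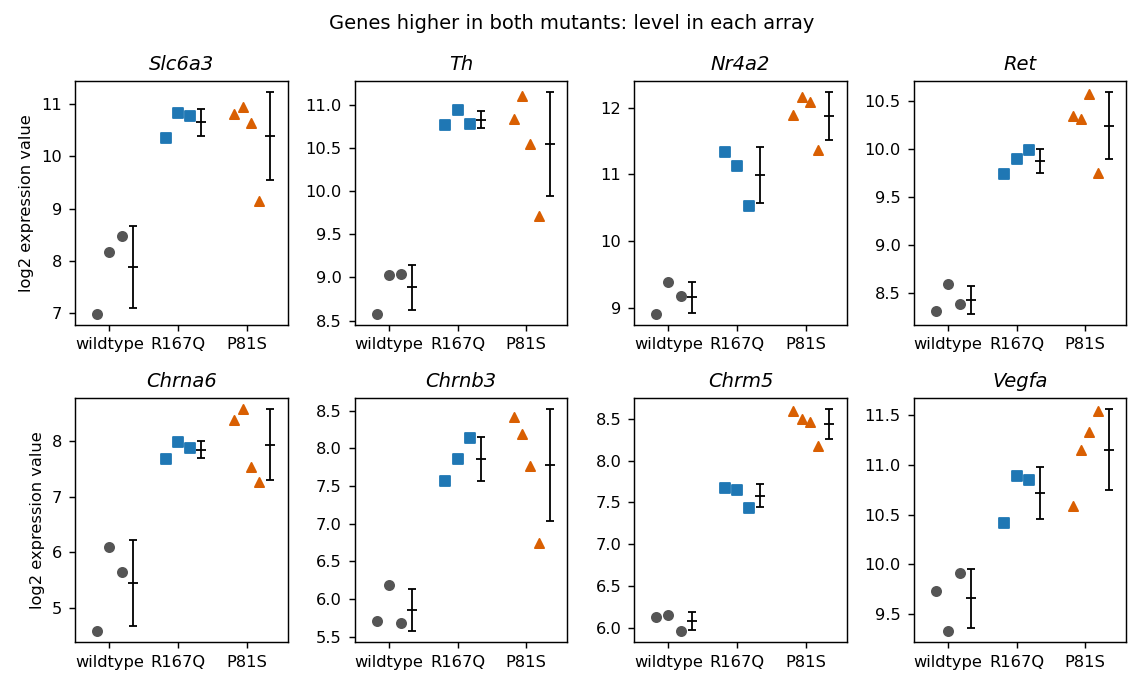
Log2 expression value of 8 genes that rose in both mutants (vertical, each panel with its own scale) in every array of wildtype (grey circles), R167Q (blue squares) and P81S (orange triangles); the bar beside each group is the mean ± SD. In each panel the 7 mutant arrays lie above the 3 wildtype arrays, which the choice of genes required for all but Vegfa. P81S replicate 4 is the lowest mutant array for Slc6a3, Th, Chrna6 and Chrnb3.

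Of 17 measured members of the catecholamine neuron list, 7 rose and 0 fell, beside 9.74% of all genes rising and 10.9% falling. This list, like the others used here, was chosen with earlier results of these data known. Its counts are therefore a description and not a test of enrichment. The 7 were Th, Slc6a3, Nr4a2, Ret, Chrm5, Drd2 and Aldh1a1. The list's median shift was 0.48 log2 in P81S and 0.34 in R167Q, against 0.01 and -0.02 over all genes. Drd2, the D2 dopamine receptor, rose by 1.37 ± 0.21 log2 (limma adjusted p = 0.0022) and Aldh1a1, a retinaldehyde dehydrogenase of some dopamine neurons, by 1.17 ± 0.31 (adjusted p = 0.0213). Members that did not pass included the next enzyme of dopamine synthesis, Ddc (-0.21 ± 0.28), and the vesicular monoamine transporter Slc18a2 (-0.27 ± 0.20). The transcription factors Pitx3 (0.45 ± 0.20), Lmx1b (0.02 ± 0.20), Foxa2 (-0.06 ± 0.28), En1 (0.60 ± 0.25) and En2 (-0.70 ± 0.34) did not pass either. Nor did Gch1, which makes the cofactor of Th (-0.38 ± 0.20), or the noradrenaline genes Dbh (-0.35 ± 0.14) and Slc6a2 (-0.23 ± 0.18). The mean over the list was 8.0 to 8.13 in wildtype arrays, 8.61 to 8.83 in R167Q and 8.23 to 9.06 in P81S. General neuron markers ran differently: their mean was 9.79 to 10.14 in wildtype, 9.87 to 10.39 in R167Q, overlapping wildtype, and 10.71 to 11.08 in P81S. In whole tumours, a change in the number of cells of a type and a change in RNA per cell cannot be told apart.

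Each mutant passed the test on its own, with the same direction, in 8 autosomal genes, and these are Th, Nr4a2, Chrm5 and Ret above, Shc3 as a further rise, and Aqp8, Fabp9 and Hesx1 as falls. Shc3 and Hesx1 were outside the rule for named genes and are named because their number is small, after their values were seen. Shc3, a neuronal signalling adaptor, read 9.19, 9.30 and 9.15 in wildtype, 9.77, 10.17 and 10.15 in R167Q, and 11.53, 11.49, 11.29 and 11.31 in P81S. The groups did not overlap, and R167Q stood at 37.0% of the P81S shift. Hesx1, a homeobox gene of the early forebrain and pituitary, read 7.11, 7.34 and 7.09, then 6.21, 6.02 and 6.27, then 5.05, 5.18, 5.35 and 5.39. It stepped down from wildtype to R167Q to P81S, with R167Q at 52.2% of the P81S shift. Membership rested on the R167Q test, where adjusted p ran from 0.00365 for Chrm5 to 0.0491 for Shc3. Without 1 array at a time the number of such genes ranged from 1 to 12. It was 3 without wildtype replicate 3 and 2 without wildtype replicate 2 or R167Q replicate 2. Adjusting p-values over autosomal genes only left 2. The main adjustment also covers the Y-linked genes Eif2s3y, Kdm5d and Uty. Their limma adjusted p for R167Q against wildtype was 2.92e-05, 5.35e-06 and 1.89e-05. The number of 8 therefore leans on their presence among the genes adjusted together.

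Other large shared rises included secretory and red-cell genes. Vgf, a neuropeptide precursor, read 6.58, 6.61 and 6.98 in wildtype, 7.7, 8.0 and 8.99 in R167Q, and 10.08, 9.77, 9.78 and 9.77 in P81S, a rise of 2.32 ± 0.24 log2 (4.98-fold, limma adjusted p = 0.000382). Ntsr2, a neurotensin receptor, read 6.53, 6.49 and 6.35, then 7.01, 8.16 and 8.25, then 9.25, 9.78, 9.64 and 10.58, a rise of 2.36 ± 0.30 (5.13-fold, adjusted p = 0.00105). In both, R167Q lay between the other groups without overlap, at 48.2% and 40.3% of the P81S shift. Against wildtype on its own, R167Q did not pass in either gene (limma adjusted p = 0.116 and 0.309). Fxyd1, a regulator of the sodium pump, rose by 1.78 ± 0.37 log2 with R167Q replicate 1 at 8.09, close to the highest wildtype array at 7.92.

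Slc4a1, the red-cell anion exchanger, read 6.15, 5.97 and 6.21 in wildtype, 7.26, 9.01 and 9.67 in R167Q, and 7.67, 8.38, 6.43 and 9.57 in P81S. Tent5c, a poly(A) polymerase, read 7.03, 6.81 and 6.94, then 7.37, 9.26 and 10.13, then 8.81, 8.94, 7.55 and 9.94. The same arrays were low in both genes, R167Q replicate 1 and P81S replicate 3. Slc4a1 rose by 2.22 ± 0.61 log2 (4.65-fold, limma adjusted p = 0.027) and Tent5c by 1.94 ± 0.56 (3.83-fold, adjusted p = 0.032). Both calls were lost without any 1 of the wildtype arrays or without R167Q replicate 2 or 3. R167Q on its own did not pass against wildtype (limma adjusted p = 0.329 for Slc4a1 and 0.382 for Tent5c). Of 10 erythroid markers 3 rose (Slc4a1 itself, Add2 and Sptb), beside 9.74% of all genes. Add2 and Sptb were not low in P81S replicate 3 (10.16 and 9.01), and R167Q stood at 33.3% and 38.6% of their P81S shift, overlapping wildtype. The list mean was 6.21 to 6.42 in wildtype, 6.76 to 7.36 in R167Q and 6.45 to 7.05 in P81S, with a median shift of 0.14 log2 in P81S and 0.44 in R167Q. The part of red cells in the result was not tested.

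Some of the genes that HIF is known to turn on rose. Of 23 measured targets, 9 rose and 0 fell, against 9.74% of all genes rising, and in none of the 9 were the mutants called different, against 72.1% of all called genes; a missed call does not show equal shifts. The median shift of the list was 0.30 log2 in P81S and 0.40 in R167Q. Vegfa, the vascular growth factor (chr17:46016993-46032377), read 9.73, 9.33 and 9.91 in wildtype, 10.42, 10.89 and 10.85 in R167Q, and 10.59, 11.15, 11.33 and 11.54 in P81S. All mutant arrays were above wildtype and the mutants overlapped. Vegfa rose by 1.28 ± 0.20 log2 (2.43-fold, limma adjusted p = 0.00215), and P81S minus R167Q was 0.43 (95% interval -0.05 to 0.92). In R167Q alone its rise did not pass (limma adjusted p = 0.239). Stc2, a secreted glycoprotein hormone, read 7.72, 7.53 and 7.82, then 8.19, 8.42 and 8.43, then 8.38, 8.25, 8.82 and 8.62. Its mutants overlapped too, above all wildtype arrays, and it rose by 0.75 ± 0.14 (adjusted p = 0.00508).

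The other HIF targets that rose were Bhlhe40, Bnip3, Car9, Higd1a, Adm, Mxi1 and Ankrd37, by 0.34 (Mxi1) to 1.34 log2 (Car9). Car9, the carbonic anhydrase widely used as a HIF readout, read 5.24, 5.40 and 5.64 in wildtype, 5.27, 7.12 and 6.71 in R167Q, and 7.09, 6.56, 7.18 and 7.88 in P81S, so that its mean shift was 0.94 in R167Q and 1.75 in P81S. R167Q replicate 1 stood among the wildtype arrays for Car9, as it did for Adm (7.73 against 7.32 to 7.77 in wildtype). The glucose transporter Slc2a1 (-0.06 ± 0.09) and Ldha (0.11 ± 0.07), both glycolysis list members under HIF control, did not pass. Endothelial markers had 0 of 20 members called, although 7 rose without P81S replicate 2, 1 without P81S replicate 1 or R167Q replicate 2, 9 without P81S replicates 1 and 2 and 12 with array weights, with list means of 7.35 to 8.23 in wildtype, 8.05 to 8.58 in R167Q and 7.20 to 9.02 in P81S. The count of 9 moved with single arrays: it was 4, 2 and 5 without wildtype replicate 1, 2 and 3, and 5 and 4 without R167Q replicate 2 and 3. It was 4 with Xist as a covariate or without P81S replicates 3 and 4, and 14 with array weights.

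Of 12 genes for HIF subunits, hydroxylases and cofactors, 3 rose, 1 fell and 8 did not pass, beside 20.6% of all genes called. Without wildtype replicate 2 or 3, 1 rose. Egln1, the main HIF prolyl hydroxylase, read 9.73, 9.65 and 10.05 in wildtype, 10.21, 10.61 and 10.32 in R167Q, and 10.56, 10.80, 10.81 and 10.83 in P81S. It rose by 0.76 ± 0.12 log2 (1.69-fold, limma adjusted p = 0.00215), with no overlap with wildtype. Egln3, another prolyl hydroxylase, rose by 0.47 ± 0.13 with the larger shift in R167Q (0.68 against 0.26 in P81S). Arnt2, a neuronal HIF partner, rose by 0.46 ± 0.12 but by only 0.06 in R167Q, which overlapped wildtype, and its call was lost without wildtype replicate 2 or 3. Hif1an, the asparaginyl hydroxylase, fell by 0.29, and that call was lost without any 1 of the wildtype arrays, P81S replicate 2, 3 or 4, or R167Q replicate 2 or 3. Hif1a itself (-0.11 ± 0.09) and Epas1, which encodes HIF-2 alpha (0.81 ± 0.39), did not pass. In the ligase list of 12 genes only Vhl rose, a signal not assigned to the mouse gene or to the cDNA. Only Cul2, the scaffold of the complex, fell. Its fall was 0.39 (limma adjusted p = 0.0297), a call lost without any 1 wildtype array or R167Q replicate 2 or 3.

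Metabolic genes shifted by small amounts. In glycolysis, 5 of 19 members rose and 0 fell, beside 9.74% of all genes rising and 10.9% falling. The 5 were Hk1, Pfkfb3, Eno2, Tpi1 and Pfkl. Pfkfb3, which makes the activator of phosphofructokinase, read 8.70, 8.46 and 8.79 in wildtype, 9.12, 9.50 and 9.39 in R167Q, and 9.34, 9.75, 9.95 and 9.97 in P81S, a rise of 0.89 ± 0.15 log2 (limma adjusted p = 0.00307) with no overlap with wildtype. Hk1, a hexokinase, stepped from 9.74 to 10.12 in wildtype through 10.14 to 10.47 in R167Q to 10.95 to 11.11 in P81S. Oxidative phosphorylation genes went the other way, with 7 of 25 falling and 0 rising, beside 10.9% of all genes falling. Cyc1, cytochrome c1, read 11.46, 11.34 and 11.42, then 11.17, 11.11 and 11.09, then 11.05, 11.05, 11.15 and 11.17, and all mutant arrays were below wildtype. It fell by 0.29 on the log2 scale (SE 0.06, limma adjusted p = 0.0093), with P81S minus R167Q at -0.02 (95% interval -0.17 to 0.14). The other falls were Ndufs1, Sdhd, Ndufa4, Uqcrc1, Ndufv1 and Atp5c1. The mutants were called different in 0 of the 7, beside 66.1% of all called falls, and a missed call does not show equal shifts. Without wildtype replicate 1, 2 or 3 the count was 3, 2 and 2, and the glycolysis count was 3 without wildtype replicate 2.

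Fatty acid oxidation also had 7 of 17 members falling and 0 rising, beside 10.9% of all genes falling. The mutants were called different in 6 of the 7, beside 66.1% of all called falls. Acads, a short-chain acyl-CoA dehydrogenase, read 9.30, 9.33 and 9.35 in wildtype, 9.10, 8.92 and 8.99 in R167Q, and 8.62, 8.30, 8.23 and 8.37 in P81S. No group overlapped another, and Acads fell by 0.64 on average (SE 0.11, limma adjusted p = 0.00286). Etfa, which passes electrons from these enzymes, stood at 32.8% of its P81S fall in R167Q.

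Falls that were large in both mutants included genes of transport, basement membrane and the germline. They were chosen among genes whose mutant arrays all lay below wildtype. Aqp8, a water channel, read 7.80, 7.55 and 7.01 in wildtype, 5.78, 5.70 and 5.81 in R167Q, and 5.48, 5.64, 5.03 and 5.05 in P81S. It was 3.78-fold lower on average (log2 shift -1.92 ± 0.19, limma adjusted p = 0.000382), and P81S minus R167Q was -0.46 (95% interval -0.93 to 0.01). Fabp9, a fatty acid-binding protein of testis, read 7.31, 7.15 and 7.31, then 5.73, 5.96 and 5.37, then 4.45, 4.54, 4.42 and 4.13. It formed 3 separate steps, was 4.65-fold lower on average (adjusted p = 5.39e-05) and was lower in P81S than in R167Q (P81S minus R167Q -1.30 log2, adjusted p = 0.000768).

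Lama1, the laminin alpha 1 chain of basement membrane, read 9.41, 8.83 and 9.22 in wildtype, 8.31, 7.67 and 7.78 in R167Q, and 8.11, 7.75, 7.49 and 7.07 in P81S. The mutants overlapped below wildtype, and Lama1 was 2.62-fold lower (limma adjusted p = 0.00263). Gtsf1, a germ cell factor of the piRNA pathway, read 7.63, 7.66 and 8.48, then 7.01, 6.32 and 6.85, then 5.70, 5.76, 5.55 and 5.70. Tex12, a synaptonemal complex protein, read 6.56, 6.81 and 6.55, then 5.48, 5.66 and 5.53, then 4.81, 5.55, 4.81 and 3.90. Both lay below wildtype in every mutant array, with R167Q at 53.3% and 57.9% of the P81S shift. Ambp, a plasma protein precursor made by liver, was 2.70-fold lower (limma adjusted p = 0.0229), a call lost without wildtype replicate 2 or 3 or R167Q replicate 2. The other 6 of the 12 falls named by rule were Wfdc15a, Slc5a4b, Nlrp4c, Cyp2b23, 4933427D06Rik and Timm8a2. They were 3.03-fold (Cyp2b23) to 6.67-fold (Nlrp4c) lower on average. The mutants were called different in all 6, beside 66.1% of all called falls. Several belong to families of close relatives, and cross-hybridisation between relatives was not tested.

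**Figure D4:**
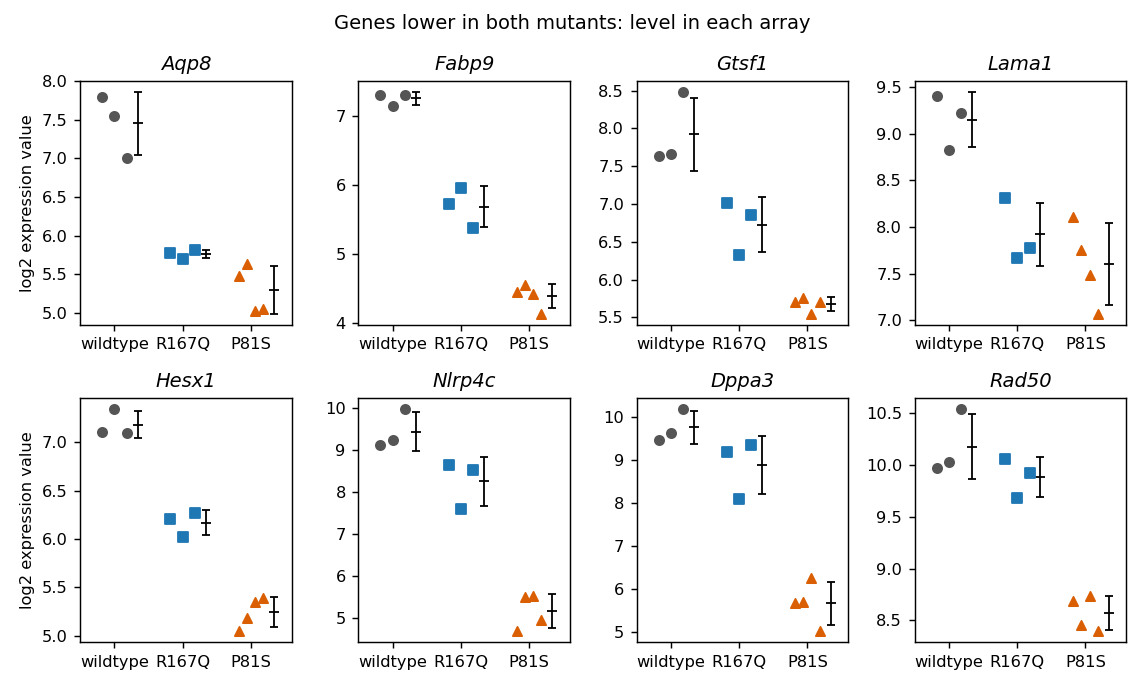
Log2 expression value of 8 genes that were lower in both mutants (vertical, each panel with its own scale) in every array, with symbols and bars (mean ± SD) as for the rises. In Aqp8, Fabp9, Gtsf1, Lama1, Hesx1, Nlrp4c and Dppa3 all mutant arrays lie below wildtype. The choice of genes required this for Aqp8, Fabp9, Gtsf1, Lama1 and Nlrp4c. For Rad50 R167Q replicate 1 (10.06) lies within the wildtype range of 9.97 to 10.54.

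Most measured genes of stem cells, meiosis and dividing cells fell, with larger shifts in P81S than in R167Q. Of 20 pluripotency genes 16 fell and 0 rose, of 18 germline genes 14 fell and 0 rose, of 27 cell cycle genes 22 fell and 0 rose, and of 24 genes of the ATM and DNA repair list 17 fell and 1 rose. Over all genes 10.9% fell and 9.74% rose. The mutants differed in every called member of these lists, beside 72.1% of all called genes. Median shifts were -2.94 log2 in P81S and -0.51 in R167Q for pluripotency, -2.56 and -0.45 for germline, -1.49 and -0.34 for cell cycle, and -1.16 and -0.30 for DNA repair. Dppa3, an oocyte and ES cell factor, read 9.47, 9.64 and 10.19 in wildtype, 9.19, 8.11 and 9.37 in R167Q, and 5.67, 5.70, 6.27 and 5.03 in P81S. R167Q stood just below wildtype, at 21.5% of the P81S shift. Gdf3, a growth factor of ES cells, and Asz1, a germ cell protein, had R167Q arrays that overlapped wildtype, at 26.8% and 17.6% of the P81S shift.

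Sycp1, a synaptonemal complex protein, read 8.10, 8.28 and 8.40 in wildtype and 7.49, 7.52 and 7.52 in R167Q, below wildtype without overlap, and 5.21, 5.39, 5.30 and 4.12 in P81S. Aurkb, a mitotic kinase, ran from 11.05 to 11.24 in wildtype, from 10.65 to 10.88 in R167Q and from 9.21 to 9.95 in P81S. Ccne1, the cyclin of S phase entry, ran from 9.84 to 10.13, from 9.33 to 9.64 and from 8.16 to 8.90. Both kept R167Q apart from wildtype and from P81S, at 23.0% and 29.8% of the P81S shift. Chek2, a checkpoint kinase downstream of ATM, read 8.03, 8.29 and 8.13, then 7.72, 7.77 and 7.58, then 6.78, 7.05, 6.92 and 6.64, again as 3 steps. Rad50, of the break-sensing complex, read 9.97, 10.03 and 10.54, then 10.06, 9.68 and 9.92, then 8.69, 8.46, 8.74 and 8.40, with R167Q overlapping wildtype. Without wildtype replicate 3 the counts of falls were 7 for pluripotency, 7 for cell cycle and 8 for DNA repair; without wildtype replicate 1 or 2 the cell cycle count was 11, and with Xist as a covariate it was 9.

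Among p53 targets 1 of 18 rose and 2 fell. Over all genes 9.74% rose and 10.9% fell, shares that also stand beside the apoptosis counts below. Cdkn1a, the cell cycle inhibitor p21, read 10.81, 10.47 and 10.48 in wildtype, 10.78, 11.22 and 10.95 in R167Q, and 11.66, 11.62, 11.61 and 11.70 in P81S. It rose by 0.73 ± 0.11 log2 (limma adjusted p = 0.00168), with R167Q overlapping wildtype at 37.3% of the P81S shift. Sesn2, a stress-response gene, was lower by a similar amount in both mutants (-0.34 in P81S and -0.38 in R167Q), a call lost without wildtype replicate 1 or 3, R167Q replicate 1 or 3 or P81S replicate 3. Trp53inp1 also fell; its call was lost without P81S replicate 4, wildtype replicate 2 or R167Q replicate 2, and 0 members fell without wildtype replicate 1 or 3 or R167Q replicate 3. Of 15 genes that promote apoptosis only the death receptor Tnfrsf10b fell and 0 rose, with R167Q overlapping wildtype. Of 13 that oppose it, Bcl2l1 and Bcl2 rose and Birc5, which also acts in mitosis, fell; 1 rose without wildtype replicate 2 or 3.

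Lists of differentiated tissue varied in their counts. Neuron markers had 10 of 16 members rising and 0 falling, beside 9.74% of all genes rising. Their medians were 1.02 log2 in P81S and 0.22 in R167Q. The mutants differed in 9 of the 10, beside 78.8% of all called rises. Slc17a6, a glutamate transporter of synaptic vesicles, read 9.14, 9.01 and 9.04 in wildtype, 9.83, 10.14 and 9.53 in R167Q, and 11.14, 11.33, 11.33 and 10.73 in P81S, as 3 steps; it rose by 1.42 ± 0.15 (limma adjusted p = 0.000501). Celf4, a neuronal RNA-binding protein, rose by 1.07 ± 0.16, with R167Q overlapping wildtype. Without wildtype replicate 2 or 3 the neuron count was 6 and 5, and without P81S replicates 3 and 4 it was 5. Glia had 3 of 14 rising, beside 9.74% of all genes, and the count was 1 without wildtype replicate 2 or 3. Slc1a2, the astrocyte glutamate transporter, rose by 1.40 ± 0.15 without overlap, whereas Gfap, the astrocyte filament, had R167Q replicate 1 at 10.79 within the wildtype range of 10.79 to 10.87 and lost its call without wildtype replicate 2 or 3. Neural progenitor genes had 0 of 17 called, with a median of 0.57 in P81S and -0.19 in R167Q, but 5 rose without P81S replicate 3 or without P81S replicates 3 and 4, and 2 without P81S replicate 4.

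Yolk sac and liver markers had 5 of 20 falling (Fgb, Afp, Ambp, Cubn and Gata4) and 0 rising, beside 10.9% of all genes falling. Their medians were -0.45 log2 in P81S and -0.39 in R167Q. Afp, the fetal plasma protein, read 7.0, 8.52 and 7.40 in wildtype, 6.27, 5.53 and 5.48 in R167Q, and 7.43, 5.62, 5.52 and 5.43 in P81S, so that P81S replicate 1 alone overlapped wildtype. Its call was lost without wildtype replicate 2 or 3, when the list's count was 1; the count was 3 without wildtype replicate 1, R167Q replicate 2 or 3 or P81S replicate 3, and 8 without P81S replicate 1. Cartilage and bone had 2 of 18 rising (Hapln1 and Sox9), beside 9.74% of all genes, and Alpl falling. Sox9 lost its call without P81S replicate 3, wildtype replicate 2 or 3, or R167Q replicate 1 or 2. Hapln1, a cartilage link protein, was higher in R167Q (1.13) and P81S (1.01) alike, with P81S minus R167Q at -0.12 (95% interval -0.74 to 0.49), and lost its call without wildtype replicate 1. Skeletal and cardiac muscle had 1 of 21 rising (Tnnc1) and smooth muscle and fibroblast 3 of 19 (Thy1, Cnn1 and Vim). Squamous epithelium had 1 of 20 rising (Lor) and ciliated airway 1 of 15 (Dnaic1). All of these stand beside 9.74% of all genes rising. Calls of Tnnc1, Thy1, Cnn1, Dnaic1 and Alpl were each lost without 1 of several arrays. Without P81S replicate 2, 6 smooth muscle and fibroblast, 5 ciliated airway and 2 muscle markers rose; without wildtype replicate 2, 0 of each did. Without P81S replicate 1, 2 squamous markers rose. Neutrophil and lymphocyte markers had 3 of 19 falling (Cd79b, Cd3e and Elane), beside 10.9% of all genes. The count was 0 without wildtype replicate 3 and 1 without wildtype replicate 2 or R167Q replicate 2 or 3. Gut epithelium (0 of 22) and macrophage (0 of 19) had no call; 1 gut marker rose without P81S replicate 2 and 1 fell without P81S replicate 1.

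**Figure D5:**
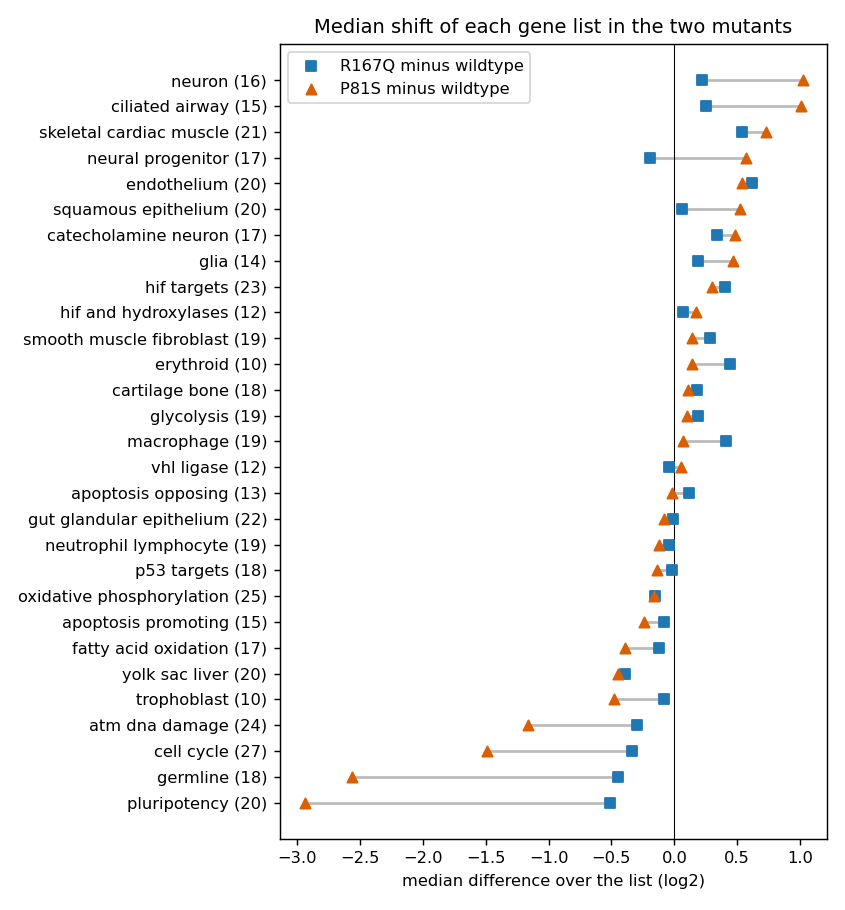
Median difference from wildtype in log2 (horizontal) over the measured autosomal members of each gene list (vertical, number of members in brackets) for R167Q (blue squares) and P81S (orange triangles), joined by a grey line. The symbols lie close together for HIF targets (0.40 and 0.30), oxidative phosphorylation (-0.15 and -0.16) and endothelium (0.62 and 0.54), and far apart for pluripotency (-0.51 and -2.94) and germline (-0.45 and -2.56).

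In a few genes the mutant means lay on opposite sides of wildtype. In 28 genes (0.155%), the mutants were called different, their means lay on opposite sides of wildtype and neither overlapped it. In all 5 named here the difference between the mutants passed, but R167Q on its own did not pass against wildtype in any of them (limma adjusted p from 0.084 for Tpbpb to 0.517 for Tpbpa), and neither did Col2a1 in P81S (0.109). Of the 5, 3 are genes of the placenta. Tpbpa, a trophoblast-specific protein, read 7.44, 7.91 and 8.02 in wildtype, 9.51, 8.13 and 8.27 in R167Q, and 5.68, 6.03, 5.86 and 4.78 in P81S. Tpbpb, its relative and neighbour on chromosome 13, read 4.38, 4.73 and 4.37, then 6.24, 5.45 and 5.67, then 3.89, 3.54, 4.03 and 3.41. Prl7b1, a placental prolactin relative, had a P81S mean 1.63 lower than wildtype and an R167Q mean 1.05 higher. In each of the 3, R167Q was high and P81S low, and the average of both mutants did not pass the test (limma adjusted p = 0.186 for Tpbpa, 0.387 for Tpbpb and 0.648 for Prl7b1). The trophoblast list as a whole had 1 of 10 members rising (Cga) and 2 falling (Tfap2c and Hand1). Cga is not particular to trophoblast, so its rise is not read as a rise of that tissue. Over all genes 9.74% rose and 10.9% fell. Of the list, 0 fell without R167Q replicate 2 and 1 without any 1 wildtype array, P81S replicate 2 or 3, or R167Q replicate 3. Without any 1 wildtype array 0 rose. Cga, the alpha subunit shared by glycoprotein hormones, read 5.19 to 5.55 in wildtype, 5.28 to 5.68 in R167Q and 9.25, 7.97, 8.70 and 11.33 in P81S, so its average call rested on P81S and was lost without any 1 wildtype array. Rab38, a small GTPase of pigment vesicles, and Col2a1, the main collagen of cartilage, were the other 2. Col2a1 read 8.0, 7.89 and 7.99 in wildtype, 8.67, 8.35 and 8.10 in R167Q, and 7.74, 7.81, 7.46 and 7.27 in P81S.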

How the data were processed

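RNA of 10 teratomas was measured on Affymetrix arrays, 1 colour and 1 array per tumour. The deposited table holds log2 expression values, 1 per probe set and array; RMA and Partek are the tools in the submitters' processing notes, and settings and versions are not given in the sources used here. RMA, where run in full, sets arrays to 1 distribution, so differences are relative to the other transcripts; array medians were 6.97 to 7.11 log2. Probe-level background was not used here, and precision is limited by how many arrays there are. Of 35556 probe sets, 21218 had 1 gene in the platform annotation, 1881 several and 12457 none listed; 21185 matched a RefSeq table (GRCm38.p6) by Entrez number. Each of 18820 genes was represented by the probe set with the highest mean (1386 genes had several).

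limma 3.58.1 in R 4.3.3 was fitted to all 10 arrays with 3 group means (lmFit, eBayes with a variance trend; 7 residual degrees of freedom) for the average of P81S and R167Q minus wildtype, each mutant minus wildtype, and P81S minus R167Q. Tests were two-sided, with Benjamini-Hochberg adjustment over all 18820 genes; the 18056 autosomal genes are reported. Folds are ratios back-transformed from the deposited log2 values, and ± is the SE of the fit. The script was tested on simulated data. The members and the 31 gene lists (520 measured autosomal entries) were chosen with earlier results of these data known. Genes were named by rule: Vhl; 12 rises and 12 falls without overlap and with the largest smaller mutant shift; 5 of opposite direction; 5 with R167Q beyond P81S; and the called genes with the lowest p of each list, at most 2. Other list members are named where all called, or all other, members are given, or where a pathway's best-known members are described. The 27 alternatives covered normalization, centring, dim genes, probe set choice, variance model, array weights, mutant weighting, adjustment, blocks, Xist, chromosomes 8 and 11, P81S pairs and single arrays.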

Additional observations from a re-analysis of the deposited data

Results flagged for a closer look

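Within the 4 P81S arrays, 1 array stood apart from the other 3 by Dixon's test in 6 of the named genes. P81S replicate 4 was the lowest for Slc6a3 (9.14 log2) and Sycp1 (4.12) and the highest for Hapln1 (7.37). P81S replicate 1 was the highest for Vgf (10.08) and Afp (7.43) and the lowest for Egln1 (10.56). Chance alone marks about 1 group in 20, and which arrays share a clone is not labelled.

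The effects of the mutants against wildtype differed from each other in the following named genes, by the limma contrast P81S minus R167Q (log2). P81S was the higher mutant with 3.78 for Cga, 2.01 for Ntsr2, 1.68 for Vhl, 1.62 for Vgf, 1.56 for Cnn1, 1.43 for Slc1a2, 1.38 for Shc3, 1.37 for Lor, 1.30 for Slc17a6 and 1.18 for Celf4. Smaller differences in the same direction were 1.18 for Thy1, 0.89 for Nr4a2, 0.86 for Chrm5, 0.85 for Add2, 0.80 for Arnt2, 0.76 for Sptb, 0.68 for Hk1, 0.66 for Cdkn1a and 0.40 for Bcl2l1. P81S was the lower mutant with -4.25 for Asz1, -3.22 for Dppa3, -3.10 for Nlrp4c, -2.51 for Sycp1, -2.08 for Timm8a2, -1.99 for Gdf3, -1.85 for Tfap2c, -1.72 for Alpl, -1.68 for 4933427D06Rik, -1.50 for Slc5a4b, -1.48 for Birc5 and -1.33 for Fgb. It was lower by less with -1.31 for Wfdc15a, -1.31 for Rad50, -1.30 for Fabp9, -1.12 for Tnfrsf10b, -1.12 for Aurkb, -1.05 for Gtsf1, -0.99 for Ccne1, -0.96 for Cyp2b23, -0.93 for Hesx1, -0.84 for Chek2, -0.62 for Acads and -0.53 for Etfa. In the genes with R167Q above and P81S below wildtype, the differences were -3.06 for Tpbpa, -2.68 for Prl7b1, -2.07 for Tpbpb, -1.66 for Rab38 and -0.80 for Col2a1.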

How the results depend on the processing

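None of the 78 named genes called at the main setting changed direction in any of the 27 alternatives that tested it. Only 32 of the 78 were tested in all 27, and 25 of these were called in all; the other 46 were missing from at least 1, as when dim genes or chromosomes 8 and 11 were left out. In all, 58 were called in each alternative that tested them, and 59 in every omission of a single array. The leading counts moved more. Leaving out 1 array at a time gave 1711 to 4437 called genes (832 to 2139 higher, 879 to 2298 lower), 1707 to 4354 of them shifted the same way in both mutants and 1164 to 2518 of those without overlap. It gave 1 to 12 genes called in each mutant on its own, 1676 to 4244 with R167Q between, 31 to 110 with R167Q beyond P81S, 1363 to 3120 shifted the same way with the mutants differing, and 2194 to 4671 called between P81S and R167Q. Array weights gave 5709 called genes (2729 higher, 2980 lower), 5553 shifted the same way, 30 called in each mutant and 275 with R167Q beyond P81S. Only genes above the median level gave 2 called in each mutant and 53 beyond P81S, and adjusting over autosomal genes only also gave 2 called in each mutant. With Xist as a covariate 1 gene was called in each mutant, 148 lay beyond P81S, and 1473 genes shifted the same way with the mutants differing. Without P81S replicates 3 and 4, 46 lay beyond P81S, 1640 shifted the same way with the mutants differing and 2293 were called between the mutants; without P81S replicates 1 and 2, 4972 genes were called against wildtype. Among gene lists, Xist as a covariate left 9 falls in cell cycle and 3 in oxidative phosphorylation, and the filter on level left 2 falls in germline and 0 in yolk sac and liver, since fewer genes were tested. The other causes were not tested. Replicate numbers did not pair the samples: deviations of same-numbered arrays correlated at -0.278 to 0.212. With the replicate number as a block, 2825 genes were called, 2702 of them among the 3719 of the main setting, 50 lay beyond P81S, and Tent5c, Ambp, Cul2, Sesn2, Tnnc1 and Cd3e lost their calls. With the clones as a random block, each of the 3 possible pairings of P81S arrays gave 3694 to 4024 called genes.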
